A study of Mus musculus with 89 samples.

Results

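Neutrophil-labelled tissue segments from untreated mouse squamous cell carcinoma were compared between the inside of the tumour and its border with the stroma. The authors' annotation places each segment by slide and location in words, and the segments it calls naive and within the tumour (14) were set against those it calls naive and interface (13), which makes 27 of the 89 segments of the series. The other untreated segments, 15 in stroma, entered the fit that shares 1 estimate of the spread and are given as a further level where they help to place a value.

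The series profiled neutrophils in different regions of the tumour and their response to immunotherapy. The GeoMx digital spatial profiler was used, in which oligonucleotide tags hybridise to RNA on a tissue section, ultraviolet light releases the tags of a chosen region, and the tags are sequenced. All 42 untreated segments lay on 1 slide, were annotated as pre-treatment and carried the same neutrophil label. The slide's scan name carries the word HRass, and no strain, genotype, age, animal or tumour is named in the sources used here.

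Segments shared 1 slide and an unknown number of animals. Their positions fell into 5 pieces of tissue, of which 3 held segments of both locations, and 15 of the 27 segments compared came from the piece numbered 2. P-values over segments are therefore too small throughout, and they measure the spread between these segments. Every segment within the tumour also carried a Cancer tag in the annotation, against 4 of 13 at the interface. Segments are numbered within each location in deposit order, which carries no meaning.

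In squamous carcinoma of the skin, nests of transformed keratinocytes, which make keratins, grow beside a stroma of fibroblasts that deposit fibrillar collagen. Collagen I is a triple helix of the Col1a1 and Col1a2 chains and collagen III is made of Col3a1 chains. Neutrophils are known by the alarmins S100a8 and S100a9, granule proteins and the surface protein Ly6g, and macrophages, the other large phagocyte of tumours, by Apoe, complement C1q and lysosomal enzymes.

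The amount of RNA signal differed before any gene was considered. The deposited signal multiplied by each segment's factor gave whole counts with a lowest value of 1, so depth was taken as the sum of counts above this floor of 1. Within the tumour, depth ran from 796 to 34772 with a median of 4438.5, and at the interface from 5831 to 66166 with a median of 18307. The ranges overlapped, and 8 of the 14 segments within the tumour lay below the shallowest interface segment. Geometric mean depth was 3.55 times lower within the tumour (log2 difference -1.83, adjusted p = 0.0032, two-sided permutation test with 100000 permutations over segments, adjusted by Benjamini-Hochberg over 4 measures).

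The number of nuclei did not pass this test, whereas depth per nucleus did. Segments held 6 to 176 nuclei within the tumour (median 67.5) and 25 to 141 at the interface (median 80), a log2 difference of -0.60 (adjusted p = 0.154, permutation test). Counts per nucleus ran from 28.3 to 214 within the tumour (median 118) and from 102 to 542 at the interface (median 238), and 6 of 14 segments within the tumour fell below every interface segment. The geometric mean at the interface was 2.34 times that within the tumour (log2 difference -1.23, adjusted p = 0.00028, permutation test). Between segments of the same piece the ratio was 2.37 (log2 difference -1.24, adjusted p = 0.0002, permutation test within pieces). With the floor included in the total, 1 count for every target, the log2 difference in counts per nucleus was 0.028 (adjusted p = 0.934, permutation test). The floor adds 19962 to every segment, above the median depth of 4438.5 within the tumour and 18307 at the interface. That total therefore cannot decide on depth per nucleus.

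Segment area, given without a unit in the annotation, was also smaller within the tumour, by a log2 difference of -1.45 (adjusted p = 0.0032, permutation test). Area per nucleus ran from 15.3 to 57.5 within the tumour (median 25.2) and from 27.6 to 81.3 at the interface (median 48.1). Without piece 2, which left 7 segments against 5, depth, depth per nucleus and area kept their direction with an adjusted p of 0.0673 each in an exact permutation test. In a bulk measure of this kind, fewer cells of a type and less RNA per cell cannot be told apart.

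**Figure D1:**
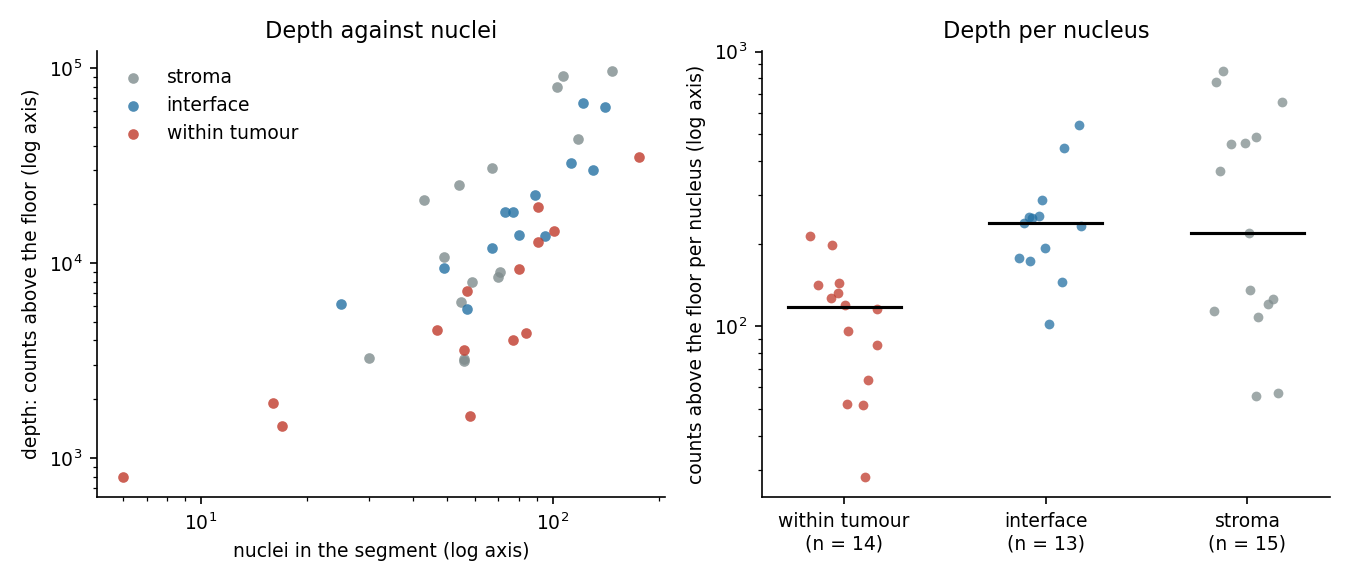
Left, depth (counts above the floor of 1) against the number of nuclei for the 42 untreated segments, both on log axes, coloured by location. Right, counts per nucleus on a log axis, where each point is a segment and each black line a median: 118 within the tumour (n = 14), 238 at the interface (n = 13).

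The lower depth sets what a value within the tumour can show. Depth summed to 120426 within the tumour and 311937 at the interface, so a target with an equal pooled share at both has 0.386 counts within the tumour for each count at the interface. At the median depth, 1 count was 2.25 per 10000 within the tumour and 0.546 per 10000 at the interface. A segment's limit of quantitation came from its negative probes (their geometric mean multiplied by the square of their geometric SD) and was set to no less than 2 counts. Above it lay 97 to 8078 targets within the tumour (median 681) and 964 to 7197 at the interface (median 2971). The share of targets at the floor had a median of 86.5% within the tumour and 57.1% at the interface. In the deposited values a single count stood at 3.74 in 9 of 14 segments within the tumour and in 2 of 13 at the interface, so targets at the floor carry larger signal values where depth is low. The comparison of targets therefore carried log2 depth as a covariate.

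Some segments stood apart. Within the tumour, segment 8 held 6 nuclei and a depth of 796, and segments 1, 2 and 14 also lay below a depth of 2000. Interface segment 1 was the only interface segment of piece 1 and had the highest interface levels of Col1a1, Col3a1 and Apoe. Interface segment 2 had 1485 counts of Ormdl1, a regulator of sphingolipid synthesis, where no other segment compared had more than 4.

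One target passed the test between the locations, the fibrillar collagen chain Col1a1, which was lower within the tumour. Of 19962 targets, the 8381 above the limit of quantitation in at least 10% of the 42 untreated segments were tested. The call of 1 target is 0.0119% of them (limma on log2(signal + 1), Benjamini-Hochberg adjusted p under 0.05), and 375 had an unadjusted p under 0.05. The median difference of all tested targets was 0.02 on the log2 scale, and 52.3% had a value above 0.

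Col1a1 encodes the alpha 1 chain of collagen I and lies on chromosome 11 from 94936224 to 94953042 (RefSeq, GRCm38.p6, the patch release of the mm10 build named in the submitters' processing notes). Its counts above the floor were 0 to 7 within the tumour (median 2), 5 to 103 at the interface (median 24) and 19 to 963 in stroma (median 93). Of the segments within the tumour, 4 had no count above the floor, and no interface or stroma segment did. Over all pieces, the order of the medians was within the tumour, then interface, then stroma. The ranges of counts of the compared locations overlapped between 5 and 7.

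Set against depth, Col1a1 took 0 to 31.2 of 10000 counts within the tumour (median 1.47), 3.60 to 167 at the interface (median 8.57) and 4.85 to 155 in stroma (median 84.3). Of the 15 stroma segments, 6 lay in piece 3 and 4 in piece 4, which held no interface segment. The 2 stroma segments of piece 2 had 4.85 and 11.5 per 10000 of Col1a1, and the 8 interface segments there 3.60 to 20.1. In piece 1 the 3 stroma segments had 71.9 to 122 and the interface segment 167. Pooled over segments the share was 2.82 per 10000 within the tumour (34 counts) and 12.3 at the interface (384 counts), a ratio of 4.36. The fitted difference on the log2(signal + 1) scale was -2.05 (SE 0.369, limma adjusted p = 0.000428). Segments above the limit of quantitation were 8 of 14 within the tumour, 13 of 13 at the interface and 15 of 15 in stroma.

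The 3 segments within the tumour with the highest Col1a1 share were shallow: segment 1 had 31.2 per 10000 from 6 counts, segment 14 had 24.4 from 4 counts and segment 2 had 13.8 from 2 counts. In the range of depth that both locations share, 5831 to 34772, the 6 segments within the tumour held 1.08 to 3.60 per 10000 (median 1.47) and the 11 interface segments 3.60 to 167 (median 8.57). In counts these were 1 to 7 against 5 to 103. There the highest share within the tumour and the lowest at the interface were equal at the precision given, and the fit over this range gave -2.11 (SE 0.349, limma adjusted p = 1.25e-05).

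The direction of Col1a1 was the same in each piece that held both locations. In piece 1 its pooled share was 19.2 per 10000 in 3 segments within the tumour (8 counts) and 167 in 1 interface segment (103 counts). In piece 2 it was 2.10 in 7 segments (15 counts) against 8.64 in 8 (164 counts), a ratio of 4.12. In piece 5 there was no count in 2 segments within the tumour, which allows up to 3.58 per 10000 by a limit of 3 counts, against 10.1 in 4 interface segments (117 counts), at least 2.82-fold higher. With piece as a covariate the fitted difference was -2.31 (limma adjusted p = 1.39e-10).

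Interface segment 1 alone held 103 of the 384 interface counts of Col1a1. Without it the pooled interface share was 9.19 per 10000 and the fitted difference was -1.64 (limma adjusted p = 0.0491). Leaving out each of the 27 segments in turn, a check added after the data were seen, gave differences from -2.20 to -1.64 and the call in 27 of 27 fits. The call was lost without piece 2 (-2.29, limma adjusted p = 0.293) and with all 89 segments in the fit (-1.74, limma adjusted p = 0.346). It was also lost where segments were thinned to a depth of 3500 and shallower ones left out (-1.29, limma adjusted p = 0.897). That fit used log2(thinned count + 1) and no depth covariate, so the size of -1.29 is not on the scale of the others. At a depth of 3500 the counts of Col1a1 were 0 to 2 in 10 segments within the tumour (median 0.5). In 13 segments at the interface they were 0 to 61 (median 2).

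Col1a1 was also compared across the annotation's Cancer tag, which 4 interface segments share with all 14 segments within the tumour. In the 4 interface segments with the tag its median share was 7.92 per 10000, and in the 9 without it 10.1. Against the tagged interface segments alone the fitted difference was -2.53 (limma adjusted p = 0.0902), which did not pass. Interface segment 1 is among the tagged ones, and the other 3 together had 5.94 per 10000 (49 counts), above the 2.82 within the tumour.

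The mean share itself, without logarithm, did not pass a test on single segments. Col1a1 averaged 6.06 ± 9.96 per 10000 (SD, n = 14) within the tumour and 21.5 ± 43.8 (SD, n = 13) at the interface. The difference of -15.4 had an adjusted p of 0.314 (two-sided permutation test, adjusted over Col1a1, Spp1 and Isg15). On the log2(per 10000 + 1) scale the difference was -1.82 (adjusted p = 0.0129, permutation test), and without the 4 segments of depth under 2000 the plain difference was -19.9 (adjusted p = 0.048, permutation test).

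**Figure D2:**
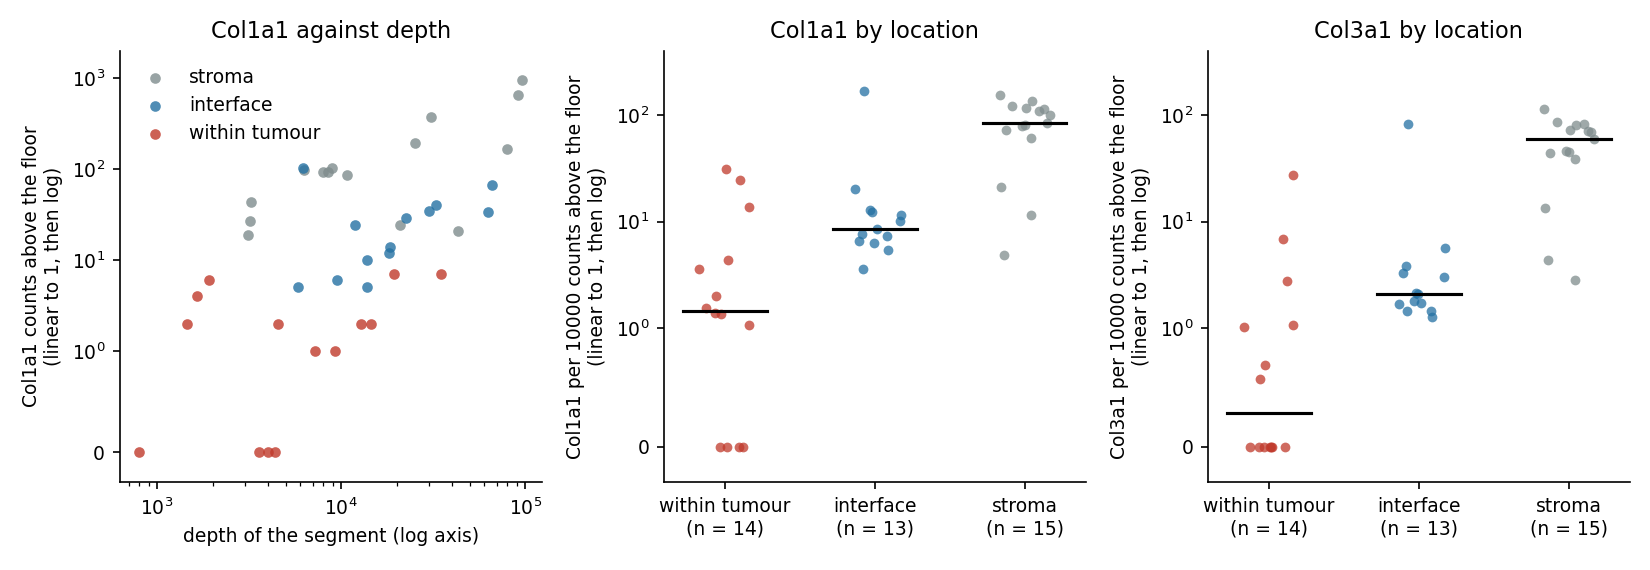
Left, Col1a1 counts above the floor against depth in the 42 untreated segments, with depth on a log axis and counts on an axis that is linear to 1 and then logarithmic. Centre and right, Col1a1 and Col3a1 per 10000 counts above the floor by location on the same kind of axis. Each point is a segment and black lines are medians over all pieces, for Col1a1 1.47 within the tumour, 8.57 at the interface and 84.3 in stroma.

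Col3a1 and Col1a2 also took smaller pooled shares within the tumour than at the interface, and neither passed the test. Col3a1, on chromosome 1 from 45311538 to 45349706, had 0 to 4 counts within the tumour (median 0.5) and 1 to 51 at the interface (median 6). No interface segment was at the floor and 7 of 14 within the tumour were. The pooled shares were 1.16 and 4.14 per 10000, against 42.4 in stroma, and the fitted difference was -1.21 (SE 0.386, limma adjusted p = 0.996). The stroma segments of piece 2 had 4.38 and 2.87 per 10000. Interface segment 1 held 51 of the 129 interface counts of Col3a1. By piece the pooled interface share of Col3a1 was 8.60 times that within the tumour in piece 1, 2.86 times in piece 2 and 0.963 times in piece 5.

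Col1a2, the partner chain of Col1a1, had 5 counts within the tumour and 56 at the interface, 28 of them in interface segment 1, or 0.415 and 1.80 per 10000, with a fitted difference of -0.43 (limma adjusted p = 0.996). Of the 12 genes of fibrillar collagens and their processing enzymes, all were tested and 1 was called (Col1a1, lower). A value above 0 was held by 6 (50%) and a value below by 6, against 52.3% above 0 among all tested targets. The median of the list was -0.02 against 0.02 for all tested targets. The crosslinking enzyme Lox had 7 counts at each location, or 0.581 per 10000 within the tumour and 0.224 at the interface. The collagen chaperone Serpinh1 had 5 counts within the tumour and 10 at the interface (0.415 and 0.321 per 10000). The collagen V chain Col5a1 had 7 and 11 (0.581 and 0.353).

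Fibroblast and matrix genes had few counts at both locations. Of 16, 14 were tested and 0 called, against 1 call and 375 unadjusted p-values under 0.05 over all targets with limma, and their median was 0.07. In this list 1 gene had an unadjusted p under 0.05, the matrix metalloprotease Mmp2, with 1 count within the tumour and 38 at the interface (-0.68, limma adjusted p = 0.996). Sparc, a collagen-binding matrix protein, had 6 and 41 counts (0.498 and 1.31 per 10000). Bgn, a small proteoglycan, had 2 and 41 (0.166 and 1.31), and Postn, a matricellular protein, 12 and 49 (0.996 and 1.57). Mmp2 and Sparc were above the limit of quantitation in 0 and 1 of 14 segments within the tumour and in 7 of 13 each at the interface. Interface segment 1 held 10 of the 38 interface counts of Mmp2, 12 of the 41 of Sparc and 15 of the 41 of Bgn. The pooled interface share of Bgn was 1.31 per 10000 with that segment and 0.850 without it. The whole list took 7.14 per 10000 counts within the tumour and 10.4 at the interface. Per target this is 0.89 and 1.30 times the average of the panel, and no member was without a count at either location. The receptor Pdgfra, which marks fibroblasts, had 7 counts within the tumour and 18 at the interface (0.581 and 0.577 per 10000). Of the 7 counts 6 lay in 1 segment, and 12 of the 14 segments within the tumour were at the floor.

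**Figure D3:**
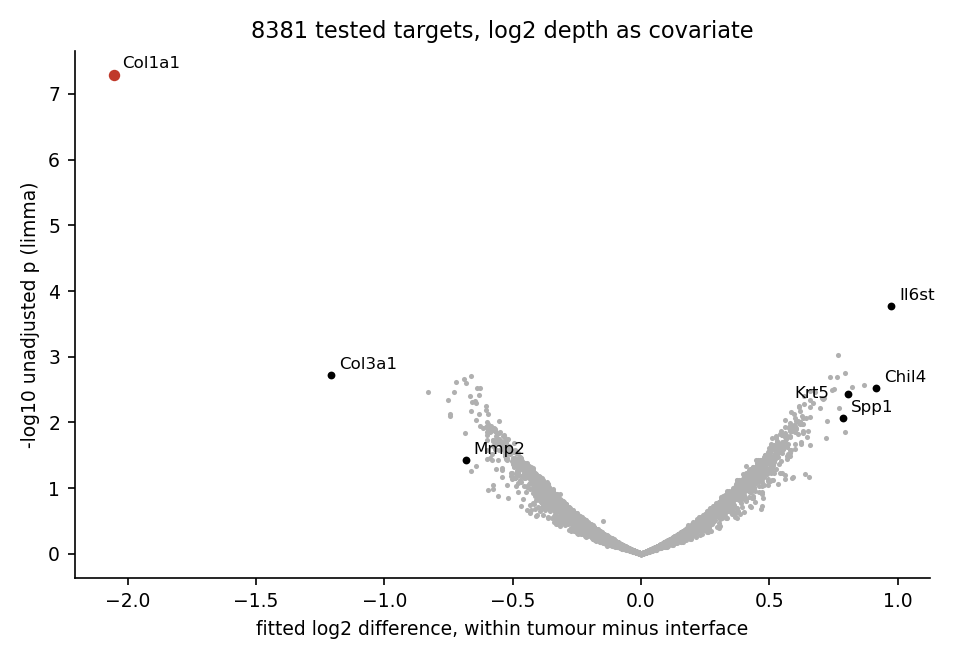
Fitted log2 difference (within tumour minus interface, on the log2(signal + 1) scale) against -log10 of the unadjusted p for the 8381 tested targets. Red marks Col1a1, the target past the adjusted threshold, and black marks other genes named in the text. Col1a1 lies at -2.05 and Col3a1 at -1.21.

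Spp1, osteopontin, a secreted phosphoprotein made by tumour-associated macrophages among other cells, had more counts within the tumour, almost all in a pair of segments. It lies on chromosome 5 from 104435111 to 104441053. Within the tumour it had 38 counts, of which 27 were in segment 13 and 8 in segment 8, and at the interface 5 counts with at most 2 in a segment. The remaining 12 segments within the tumour held 3 counts together, 0.353 per 10000, against 0.16 per 10000 at the interface. Its segments above the limit of quantitation were 3 of 14 within the tumour, 0 of 13 at the interface and 4 of 15 in stroma.

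The mean share of Spp1 was 7.88 ± 26.7 per 10000 (SD, n = 14) within the tumour and 0.126 ± 0.204 (SD, n = 13) at the interface, with a median of 0 at each. The difference of 7.76 did not pass (adjusted p = 0.314, permutation test over segments). Without segments of depth under 2000, which removes segment 8, the difference was 0.861 (adjusted p = 0.11, permutation test). The fitted log2 difference was 0.78 (SE 0.297, limma adjusted p = 0.996).

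Segments 8 and 13 also held many of the counts of other genes. Segment 13, the deepest within the tumour, had 176 nuclei and a depth of 34772, out of 120426 there. It held 13 of the 20 Krt5 counts, 19 of the 48 Krt6a counts, 9 of the 59 of Apoe and 19 of the 69 of Psap. Its 3.74 per 10000 of Krt5 and 5.46 of Krt6a lay above the pooled 1.66 and 3.99 within the tumour. Its 2.59 of Apoe and 5.46 of Psap lay below the pooled 4.90 and 5.73. Segment 8, with 6 nuclei, held 43 of the 59 Apoe counts, 30 of the 69 Psap counts and 12 of the 22 Ctss counts. Apoe is an apolipoprotein abundant in macrophages, Psap a precursor of lysosomal activators and Ctss a lysosomal protease of antigen-presenting cells. Apoe was 540 per 10000 in segment 8, the highest of the 42 segments.

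Among 16 macrophage and complement genes, all tested, 0 were called and the median was 0.10. Of them 10 (62.5%) had a value above 0, against 52.3% of all tested targets. The summed share of the 16 genes ran from 2.49 to 1055 per 10000 within the tumour (median 7.48). At the interface it ran from 2.73 to 238 (median 8.45). The highest values were segment 8 and interface segment 1, and both lie in piece 1. Apoe had 0 to 43 counts within the tumour (median 0.5) and 0 to 74 at the interface (median 1), with 74 in interface segment 1. Its pooled share in piece 1 was 113 per 10000 within the tumour and 120 at the interface, and in piece 2 it was 0.28 and 0.737. The C1q chains had few counts, with C1qa at 8 within the tumour and 16 at the interface (0.664 and 0.513 per 10000). C1qb had 10 and 28 (0.830 and 0.898) and C1qc 3 and 29 (0.249 and 0.930).

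Tyrobp, a signalling adaptor of myeloid receptors, was among the rises with the smallest p-values. It had 19 counts within the tumour and 16 at the interface, or 1.58 and 0.513 per 10000 pooled, and a fitted difference of 0.82 (limma adjusted p = 0.996). Its counts per segment ran from 0 to 6 within the tumour and from 0 to 5 at the interface, and 6 segments of each location had none. Of the 14 tumour-associated myeloid genes, 10 were tested and 0 called, with a median of 0.17. Of the tested ones 8 (80%) had a value above 0, against 52.3% of all tested targets. Arginase 1 (Arg1), an enzyme of suppressive myeloid cells, had 9 and 11 counts, or 0.747 and 0.353 per 10000. The chemokine Ccl4 had 24 and 65, which are 1.99 and 2.08 per 10000.

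**Figure D4:**
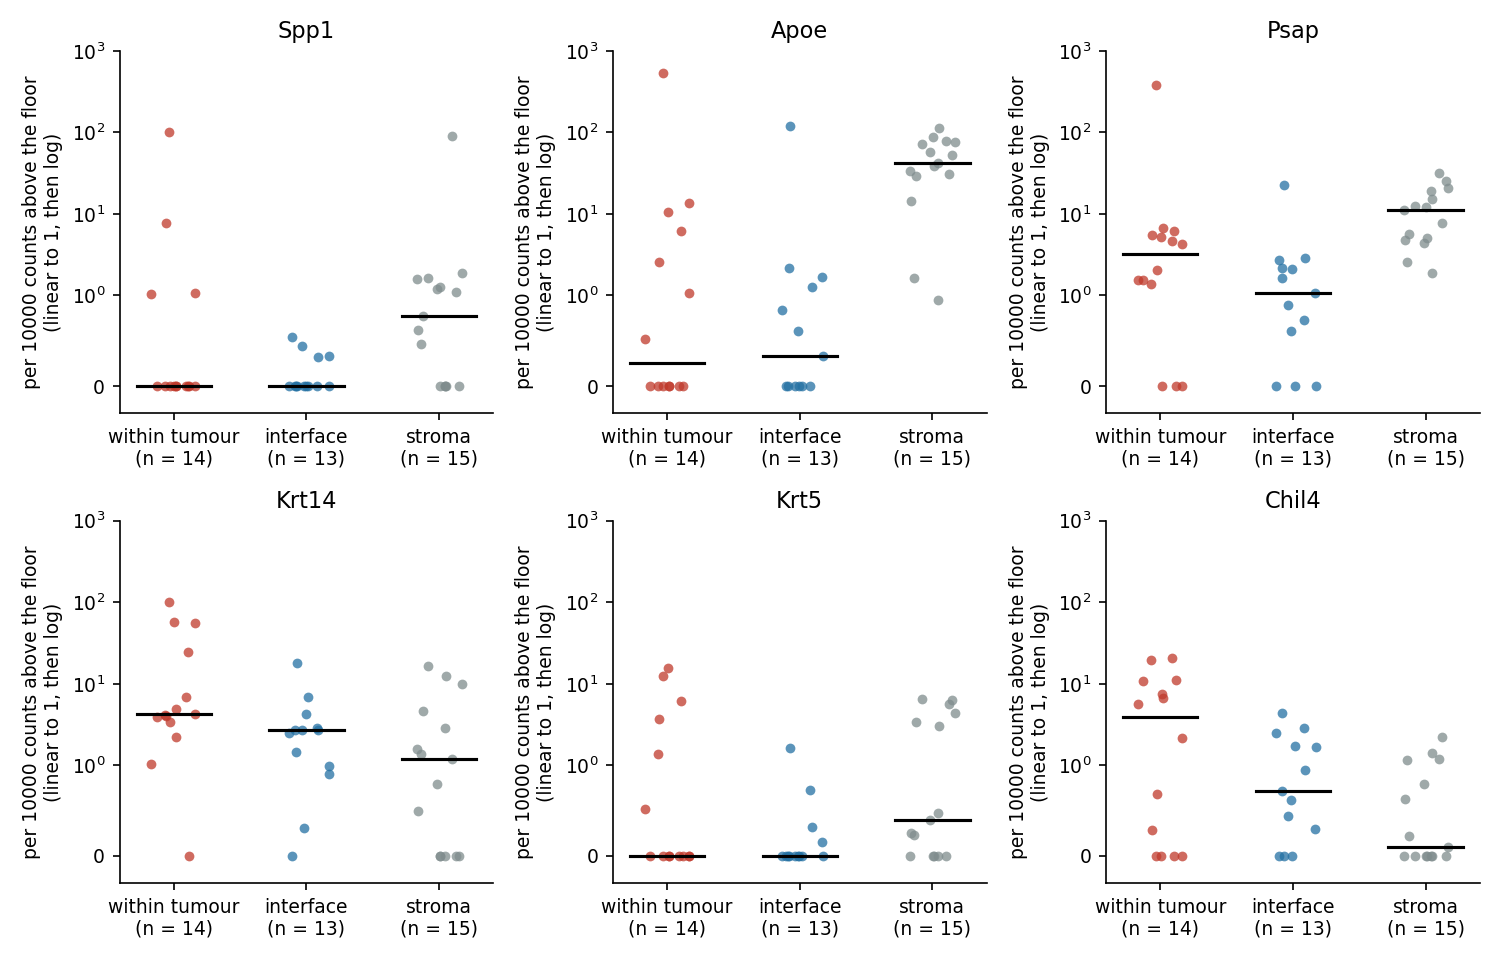
Counts per 10000 above the floor for Spp1, Apoe, Psap, Krt14, Krt5 and Chil4 in the 42 untreated segments by location, on an axis that is linear to 1 and then logarithmic. Each point is a segment and black lines are medians. The median of Spp1 is 0 at both compared locations, and the highest Apoe point within the tumour, 540 per 10000, is segment 8.

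Isg15, a ubiquitin-like protein induced by interferon, was rare at both locations. It lies on chromosome 4 from 156199424 to 156200818. Within the tumour 4 segments had 1 or 2 counts, 6 in all, and at the interface 3 segments had 2 or 3, 7 in all. Its pooled share was 0.498 per 10000 within the tumour and 0.224 at the interface. The mean shares were 0.328 ± 0.576 (SD, n = 14) and 0.11 ± 0.221 (SD, n = 13), a difference of 0.22 (adjusted p = 0.314, permutation test), and 10 segments of each location were at the floor. Without piece 2 the difference was -0.14 (adjusted p = 0.625, exact permutation test). Only 4 of 42 untreated segments had Isg15 above the limit of quantitation, so it was not among the tested targets.

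No interferon-response gene passed. Of 18, 13 were tested and 0 called, with a median of 0.06. Of the 13, 9 (69.2%) had a value above 0, against 52.3% of all tested targets. Ifi27l2a, an interferon-inducible gene, had 19 counts within the tumour and 21 at the interface, or 1.58 and 0.673 per 10000, with a fitted difference of 0.65 (limma adjusted p = 0.996). Ifit3 had 9 and 24 counts (0.747 and 0.769 per 10000) and Ifitm3 9 and 32 (0.747 and 1.03). Mx1 had 14 and 22 counts (1.16 and 0.705 per 10000) and Bst2 11 and 23 (0.913 and 0.737). The list took 10.2 per 10000 within the tumour and 9.20 at the interface.

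The neutrophil label was set against markers of the cell type. The 19 genes of the list took 9.96 per 10000 within the tumour and 9.23 at the interface, which per target is 1.05 and 0.97 times the panel average. The summed share ran from 2.30 to 25.1 within the tumour and from 1.68 to 13.3 at the interface, and the ranges overlapped. S100a8 was above the limit of quantitation in 3 of 14 segments within the tumour and 9 of 13 at the interface, with 19 and 43 counts, which are 1.58 and 1.38 per 10000. Segment 13 held 11 of the 19 counts of S100a8 within the tumour, without segments 8 and 13 the share there was 0.825 per 10000, and the fitted difference over all segments was -0.28 (limma adjusted p = 0.996). S100a9 was above the limit of quantitation in 3 and 7 segments, with 11 and 34 counts, or 0.913 and 1.09 per 10000.

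Defining surface and granule genes were close to the floor. Ly6g had 8 and 19 counts, which at the lower depth within the tumour are 0.664 and 0.609 per 10000. For the next counts, an equal pooled share gives 0.386 counts within the tumour for each count at the interface. The chemokine receptor Cxcr2 had 3 and 9 counts, the G-CSF receptor Csf3r 8 and 4, and myeloperoxidase (Mpo) 7 and 18. Elane, neutrophil elastase, had no count within the tumour and 13 at the interface. Of the list, 7 genes were tested and 0 called, and the median was -0.02. Of the 7, 3 (42.9%) had a value above 0 and 4 below, against 52.3% above 0 among all tested targets.

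Keratins were measured at both locations. Krt14, the basal-layer type I keratin, had 70 counts within the tumour and 66 at the interface, which at the lower depth are 5.81 and 2.12 per 10000 pooled. The 4 segments within the tumour of depth under 2000 had 24.4 to 101 per 10000, and the others there 0 to 6.90. In the range of depth that both locations share, the medians of Krt14 were 3.95 within the tumour and 2.68 at the interface. Per segment its share ran from 0 to 101 (median 4.23) and from 0 to 17.8 (median 2.68), and the fitted difference was 0.66 (SE 0.359, limma adjusted p = 0.996). Against the 4 interface segments with a Cancer tag it was -0.32 (limma adjusted p = 0.991). Krt14 was above the limit of quantitation in 12 of 14 and 11 of 13 segments. Krt5, its partner, had 20 and 5 counts and a fitted difference of 0.81 (limma adjusted p = 0.996), and without segment 13 and segment 8 the remaining segments within the tumour held 6 counts.

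The wound keratin Krt6a had 48 and 34 counts, or 3.99 and 1.09 per 10000, with a fitted difference of 0.43 (limma adjusted p = 0.996) whose sign turned under 4 alternatives. Krt1 and Krt10, keratins of differentiating layers, had 45 and 56 counts (3.74 and 1.80 per 10000) and 44 and 51 (3.65 and 1.63). Segments 1 and 2 within the tumour, both of piece 1, held 26 of the 45 Krt1 counts and 28 of the 44 Krt10 counts. Of 10 stress keratinocyte genes 9 were tested and 6 (66.7%) had a value above 0 (median 0.20). Of 14 differentiation and junction genes 8 were tested and 4 (50%) had a value above 0 (median 0.02). Among all tested targets 52.3% did, and 0 genes were called in either list.

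Beyond Col1a1, the genes with the smallest p-values in each direction did not pass and are given as values. The 10 with positive differences (0.68 to 0.97) had adjusted p-values between 0.707 and 0.996 with limma. Il6st, the shared signal-transducing receptor chain of the interleukin 6 family, had the smallest. It had 17 counts within the tumour (0 to 4 a segment) and 9 at the interface (0 to 5), or 1.41 and 0.289 per 10000, and a fitted difference of 0.97 (SE 0.256, limma adjusted p = 0.707). The lysophosphatidic acid receptor Lpar1 had 19 and 20 counts, and the splicing kinase Clk1 25 and 27, each at lower depth within the tumour.

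Chil4, a chitinase-like secreted protein, had 62 counts within the tumour and 33 at the interface, the most of these 10 genes. Its share ran from 0 to 20.7 per 10000 (median 3.91) within the tumour and from 0 to 4.37 (median 0.721) at the interface, and the median in stroma was 0.104. The fitted difference was 0.92 (SE 0.307, limma adjusted p = 0.996), and without piece 2 it was -0.14. The highest segments within the tumour, 11, 5, 7 and 3, lay in pieces 2 and 5, and the 3 segments of piece 1 had no count. The remaining 6 of the 10 were Pnisr, S100a14, Ms4a4c, Matk, Ppfibp1 and Tyrobp.

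In the other direction the 9 genes after Col1a1 had differences between -1.21 and -0.63 and an adjusted p of 0.996 each with limma. Apart from Col3a1 they were rare, with 17 to 57 counts over both locations. Mgat4b, a glycosyltransferase of N-glycan branching, had no count in any of the 14 segments within the tumour and 23 at the interface, where 5 of 13 segments were at the floor. With 3 counts as the limit over all segments within the tumour, its interface share of 0.737 per 10000 was at least 2.96-fold higher. Tnfaip3, an inhibitor of NF-kB signalling, had 1 and 18 counts. Foxb2, Pcdhb2, Deup1, Fam131a, Bhmt and Samd7 had 0 to 6 counts within the tumour and 17 to 51 at the interface. Like Tnfaip3, the genes Foxb2, Pcdhb2, Deup1 and Fam131a were above the limit in no segment within the tumour and were named through the interface.

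The remaining lists held no called gene. In all, 188 of 287 distinct list genes were tested, and 107 had a value above 0 and 81 below. An unadjusted p under 0.05 with limma was reached by 10 of them. Over all 8381 tested targets, 1 was called, 52.3% had a value above 0 and 375 had an unadjusted p under 0.05 with limma. The B cell receptor component Cd79b had 1 count within the tumour and 28 at the interface (-0.63, limma adjusted p = 0.996). Immunoglobulin Ighm had 18 and 46, or 1.49 and 1.47 per 10000. MHC class I and class II genes had medians of -0.11 over 7 tested and -0.07 over 5. Beta-2-microglobulin (B2m) had 12 and 54 counts, 28 of them in interface segment 1, or 0.996 and 1.73 per 10000. Without that segment the interface share of B2m was 0.850 per 10000, below that within the tumour. The class I heavy chain H2-D1 had 21 and 93 counts, or 1.74 and 2.98 per 10000.

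T cell genes (5 tested, median 0.18), endothelial genes (4, 0.24), basement membrane genes (6, 0.19) and glycolysis and hypoxia genes (11, 0.16) had 0 calls each, against the median of 0.02 for all tested targets. Chemokine ligands (11, -0.04), eicosanoid and fatty acid enzymes (5, 0.04), iron and heme genes (6, -0.03), TGF-beta and EMT genes (8, -0.01), proliferation genes (9, 0.08) and muscle genes (7, 0.02) had 0 too. The B and plasma cell genes (6, -0.08), the basal keratinocyte genes (3, 0.66) and the single tested erythroid gene Hba-a1 (0.44) had 0 as well. Housekeeping genes had a median of -0.25 over 11 tested, with 3 (27.3%) above 0, against 52.3% of all tested targets. The share of this list went the other way, at 48.9 per 10000 pooled within the tumour and 40.2 at the interface. Its medians over segments were 52.8 and 41.2. Gapdh, a glycolytic enzyme often used as a reference, had 107 and 197 counts, or 8.89 and 6.32 per 10000.

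**Figure D5:**
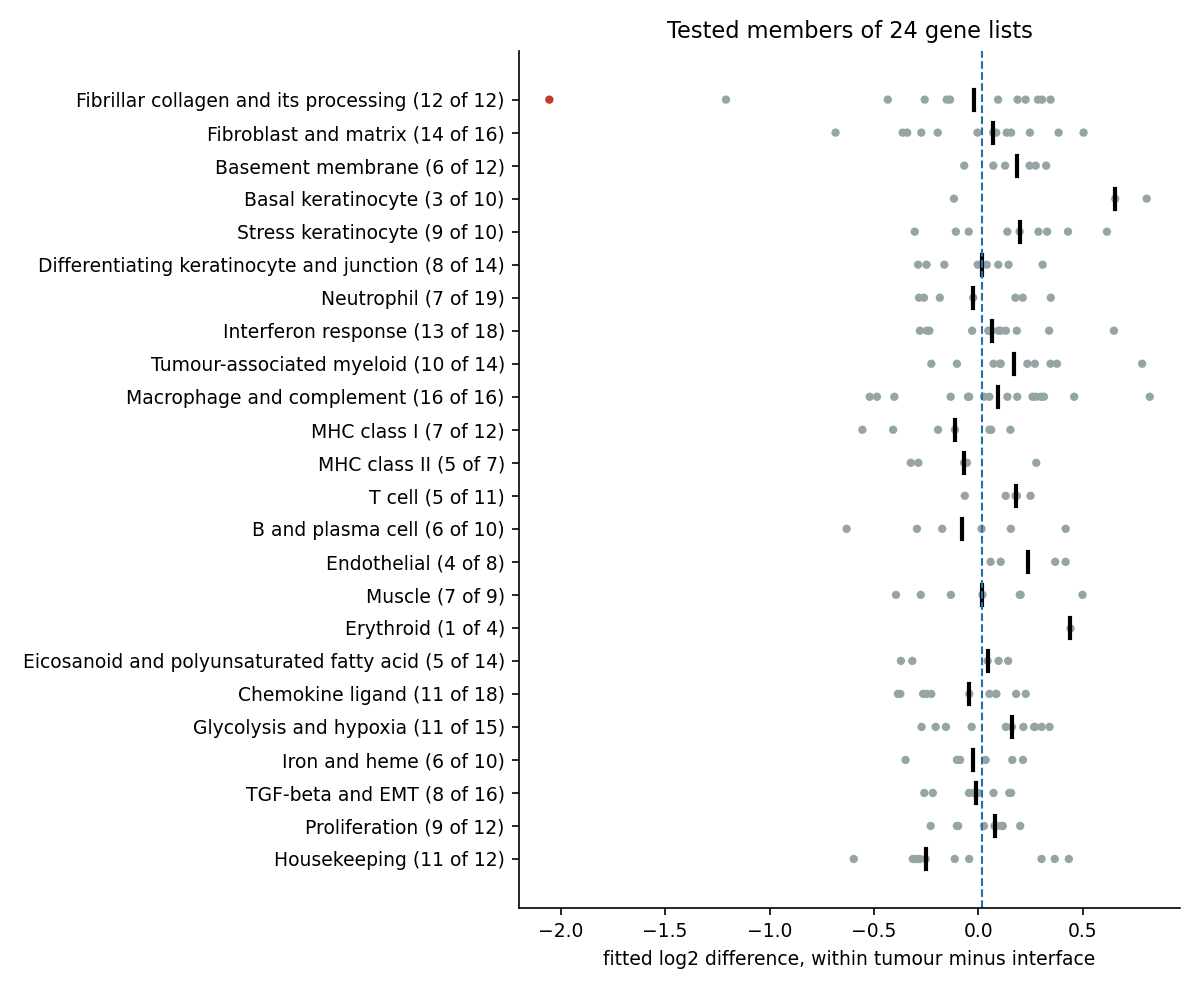
Fitted log2 difference (within tumour minus interface) of each tested member of 24 gene lists, with tested members of all members in brackets. Grey points are genes, red is Col1a1, black bars are list medians and the dashed line is the median of all tested targets, 0.02. Outside the fibrillar collagen list the lowest point is Mmp2 at -0.68.

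Over all pieces, the last 3 targets had lower medians in stroma than at both compared locations, and they did not pass between these. The lectin-like target Clec2j took 0 to 128 per 10000 within the tumour (median 46.7) and 7.96 to 61.3 at the interface (median 37), with a fitted difference of 0.47 (limma adjusted p = 0.996). Sesn3, a stress-induced regulator of growth signalling, had medians of 28.7 and 21.1 (0.27, limma adjusted p = 0.996). The reporter target mCherry/tdTomato had 71 and 161 counts, with medians of 6.88 and 6.01 per 10000 (-0.26, limma adjusted p = 0.996). In stroma the medians of the 3 were 7.46, 4.78 and 2.09. The 2 stroma segments of piece 2 had 30.5 and 37.7 of Clec2j and 19.4 and 27.7 of Sesn3. The 8 interface segments there had 29.2 to 61.3 and 17.5 to 43.6. In piece 1 the 3 stroma segments had 6.27 to 9.1 and 4.51 to 5.52, below the interface segment at 16.2 and 8.08. The pooled interface share in piece 5 was 9.15 for Clec2j and 6.9 for Sesn3, against 40.5 and 25.5 in piece 2. The stroma medians therefore mix location with piece.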

How the data were processed

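Tag signal of 19962 targets in 89 segments of 1 labelled cell type was read, and the 42 untreated segments were used. The signal is the count divided by an upper-quartile factor, a ratio deposited by the authors for each segment, as checked on the values: multiplied back, 99.986% were whole within 1e-06. The negative-probe signal and its geometric SD, a ratio, are given per the file headers. The submitters' processing notes name mm10 and Seurat. The aligner and counter are not given in the sources used here.

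The deposited signal is not a count, so log2(signal + 1) was fitted with limma 3.58.1 in R 4.3.3 (trend, two-sided), with 1 mean per location and log2 depth, and Benjamini-Hochberg adjustment at 0.05 over the 8381 targets tested. Permutation tests ran in Python 3.11.15 with NumPy 2.4.6, exact where a group had fewer than 10 segments. Pieces were segments linked at under 8000 position units. Thinning drew 3500 counts from each of 10, 13 and 12 segments within the tumour, at the interface and in stroma.

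Named genes were Col1a1, Spp1 and Isg15, the 10 largest rises and falls past the threshold above the limit of quantitation in at least 5 of 27 segments, filled up by the smallest p-value, and tested list members above it in at least 8 (54). The 54 are covered by values or by their list's counts. Krt5, Psap, Ctss, Mmp2, Ormdl1 and other genes outside this rule were chosen after their values were seen. Locations and gene lists were chosen with earlier results of these data known. The fit was also run on simulated counts with planted changes. These had no spread between segments or pieces beyond depth and counting, so that run does not test the p-values of these data. Gene names are those deposited, of which 19822 matched a RefSeq symbol and 24 a synonym.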

Additional observations from a re-analysis of the deposited data

How the results depend on the processing

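Most targets within the tumour rest on a few counts, and 1 slide with an unknown number of animals limits every p-value. Of 19 other limma fits, 15 made 1 call, and Col1a1 was called in 15. Fits that left out 1 of the 27 segments, added after the data were seen like the Cancer tag, minimum depth, shared depth and per 10000 with depth fits, each made 1 call (Col1a1, -2.20 to -1.64, adjusted p 1.58e-05 to 0.0491). The count was 5 (3 higher, 910 unadjusted p-values under 0.05) with counts per 10000 and no depth covariate, which added Chic2, LOC118568634, Gm52800 and Mgat4b. It was 0 with thinned counts (418), with all 89 segments (673) and without piece 2 (498), where Col1a1 was -1.29, -1.74 and -2.29. The -1.29 is on the log2(thinned count + 1) scale without the depth covariate. Against interface segments with a Cancer tag Col1a1 was -2.53 and the call was Mgat4b. Without the depth covariate 77.2% of targets had a value above 0 and with counts per 10000 alone 24.5%, against 52.3%, and the medians were 0.17 and -0.17.

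Without piece 2, depth (-2.40), depth per nucleus (-1.43) and area (-1.90) no longer passed. With the floor included in the total, 1 count for every target, counts per nucleus differed by 0.028. The floor adds 19962 to every segment, so that total cannot decide on depth per nucleus. The Col1a1 share passed with piece as a covariate (-26.5, p at the smallest the permutations can give), on the log2 scale (-1.82) and without segments of depth under 2000 (-19.9). Isg15 turned to -0.14 without piece 2.

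For the other 72 named targets, 1352 values of the other fits were set against the main fit. They include targets whose main value was below its SE, which could not count as turned. A turn of sign was counted only where the main value exceeded its SE, and 15 values turned. These were Chil4 without piece 2 (-0.14); with thinned counts Ppfibp1 (-0.054), Krt6a (-0.17), Adgre1 (0.092), H2-Aa (0.0030) and Ldha (-0.18); with counts per 10000 and no depth covariate Hba-a1 (-0.072), Eno1 (-0.11) and Ldha (-0.10); with tagged interface segments Krt14 (-0.32), Krt6a (-0.25) and Krt16 (-0.14). Krt6a was -0.12 in the compared segments alone and -0.058 without piece 4, and Krt16 was -0.044 with all 89 segments. The causes were not tested. The planned count models, and sums per piece tested with them, were not run; pooled shares per piece are given for Col1a1 with its results.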

Other observations

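Ormdl1, which takes part in the control of sphingolipid synthesis, had 1485 counts above the floor in interface segment 2, 455 per 10000 and the highest share of any target in that segment. The other 26 compared segments had 0 to 4 counts of it. Its fitted difference was -0.35 (limma adjusted p = 0.996).

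The target with the largest share at both locations was Gm52800, a predicted gene, with 226 to 616 per 10000 within the tumour (median 338) and 157 to 420 at the interface (median 262). With counts per 10000 and no depth covariate it was called higher within the tumour, together with Chic2 and LOC118568634. With log2 depth as a covariate its difference was -0.15 (limma adjusted p = 0.996).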
